A study of Rattus norvegicus with 23 samples.

Results

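Collagen sandwich (CS) hepatocytes were compared with hepatocyte monolayers (HM), as 6 of the 23 arrays of a study of rat liver cell cultures. The arrays were chosen by their culture label, CS or HM, with 3 arrays each, and every gene named by a probe set of the array was taken, 14217 genes in all. Hepatocytes of both cultures came from female Lewis rats by collagenase perfusion of the liver, had no other cell type added and were sampled at day 12. HM cells form a monolayer, while in CS the cells lie between layers of collagen. Hepatocytes of 2 organotypic models at day 12 had 3 arrays each and serve below as a further comparison. In these models a thin polymer membrane separates them from sinusoidal endothelial cells (3DHL) or from endothelial cells and Kupffer cells (3DHLK). For the models, the paper describes a first stage as monolayers on rat-tail type 1 collagen in multiwell plates. It does not describe the surface of the HM cultures separately. Whether the arrays of a group stem from different rats is not stated in the labels, and the p-values cover only the variation among these arrays, which may be technical.

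Hepatocytes in the liver are polarised, with sinusoidal faces that meet a loose matrix and canalicular domains between neighbouring cells. They carry out urea, bile acid, lipid and drug metabolism and secrete most plasma proteins. On a stiff flat surface they are known to spread, form stress fibres and lose many of these functions, and an overlay of collagen is a classical means of slowing that loss.

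Each level given is the deposited log2 value of a gene's probe set, and each change is the mean in CS minus the mean in HM on this scale, so that a change of 1 is 2-fold. A gene was called at an adjusted p under 0.05 in limma, fitted on all 23 arrays and adjusted by Benjamini-Hochberg over all genes. In CS, 1574 genes were called higher (11.1% of those tested) and 1526 lower (10.7%), out of 3100 called in either direction (21.8%). At 2-fold or more, 322 genes were called higher (2.26% of those tested) and 330 lower (2.32%). CS and HM arrays did not overlap for 46.3% of all genes, with CS higher in 24.8% and lower in 21.5%. The median change over all genes was 0.04, and these shares and this median are the background for the gene lists below. Array pairs correlated at 0.987 to 0.9962 within CS, 0.9917 to 0.9976 within HM and 0.9728 to 0.9778 between the cultures. The first principal component, with 71.7% of the variance, separated the 3 CS arrays from the 3 HM arrays, and on the second, with 15.3%, CS 1 and HM 2 lay at one end. Without these 2 arrays, a choice made after they had been seen to stand apart, 1277 genes were called higher and 978 lower. Of 13 housekeeping genes, 2 were called higher and 1 lower, with a median of 0.02.

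Both cultures carried the marks of hepatocytes. Alb, the gene of serum albumin, had log2 levels of 14.56, 14.47 and 14.58 in CS, against 14.54, 14.58 and 14.54 in HM. Ttr, the gene of the thyroxine carrier transthyretin, had levels of 14.35, 14.29 and 14.31 in CS, against 14.15, 14.04 and 14.12 in HM. These values lie near the top of each array's range, whose maximum was 14.61 to 14.72 on the 6 arrays, so changes of the most abundant genes can be compressed. Hnf4a, a central transcription factor of hepatocytes, had levels of 11.84, 11.80 and 11.87 in CS, against 11.70, 11.65 and 11.68 in HM and was not called (adjusted p = 0.592). The CS arrays of Ttr and Hnf4a were all above those of HM, by a small margin, as was the case for 24.8% of all genes.

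Among called genes whose CS and HM arrays did not overlap, the 15 largest rises included several enzymes of steroid, lipid and amino acid metabolism. Cyp17a1, which encodes the 17-alpha-hydroxylase of steroid synthesis, had log2 levels of 10.18, 10.58 and 10.69 in CS, against 7.13, 7.41 and 7.16 in HM. This is a rise of 3.25 ± 0.17 (SE), or 9.50-fold (adjusted p = 3.98e-11). Levels of Apon, the gene of apolipoprotein N, were 7.51, 8.61 and 8.44 in CS, against 5.20, 5.03 and 5.05 in HM. All CS arrays were higher, and CS 1 was the lowest of them. Urad, which acts in the breakdown of uric acid, reached 10.21, 10.83 and 10.81 in CS, against 7.81, 7.77 and 7.77 in HM, a rise of 2.83 ± 0.18 (adjusted p = 3.87e-10). Elovl2, which elongates polyunsaturated fatty acids, had 8.49, 9.19 and 9.28 in CS, against 6.22, 6.15 and 6.12 in HM, with CS 1 again below the other CS arrays. For Apoa2, a protein of high density lipoprotein, levels were 11.20, 10.86 and 11.37 in CS, against 8.44, 8.30 and 8.34 in HM, a rise of 2.78 ± 0.14 (adjusted p = 1.15e-11).

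The 15 also held Ugt2b1, a glucuronosyltransferase of drug and steroid metabolism, with a rise of 2.52, and Hgd, the homogentisate dioxygenase of tyrosine breakdown, with a rise of 2.31. Others among them were Thrsp, a regulator of lipogenesis (rise of 2.30), Fads2, the delta-6 desaturase of polyunsaturated fatty acids (2.27), Mat1a, the liver enzyme that makes S-adenosylmethionine (2.23), and Pnpla3, a lipid droplet protein (2.23). Cyp7a1, the rate-limiting enzyme of bile acid synthesis, rose by 2.22 ± 0.28 (adjusted p = 4.31e-06). The rest were Faxdc2 (2.48), Rasgrp2, an exchange factor for Rap proteins (2.27), and Ifitm1, an interferon-induced membrane protein (2.5). Ifitm1 differed from the rest in its spread, with levels of 9.60, 7.96 and 8.23 in CS, against 4.85, 7.60 and 5.85 in HM. HM 2 lay close to the CS arrays, and the groups did not overlap.

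The largest falls exceeded the largest rises in size. Car3, the carbonic anhydrase isoform of muscle, fat and liver, had log2 levels of 6.49, 5.20 and 5.75 in CS, against 11.19, 11.17 and 11.22 in HM. It fell by 5.38 ± 0.31 on the log2 scale and was 41.6-fold higher in HM (adjusted p = 1.08e-10), with HM arrays that lay close together and CS arrays that were spread. Sdr16c5, a retinol dehydrogenase, had levels of 5.31, 5.43 and 5.28 in CS, against 9.43, 9.50 and 9.61 in HM, and was 18.1-fold higher in HM (adjusted p = 6.57e-15). Acta1, the alpha-actin of skeletal muscle, had levels of 6.41, 6.60 and 6.28 in CS, against 10.19, 10.44 and 10.22 in HM, and fell by 3.85 ± 0.29 (adjusted p = 4.03e-09). No CS array came near an HM array in any of these genes.

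Several of the other large falls were in cytoskeletal genes that are best known in neurons. Nefl, the light neurofilament chain, had levels of 8.10, 7.98 and 8.36 in CS, against 11.88, 11.77 and 11.77 in HM, and Nes, the intermediate filament nestin, had 7.43, 6.69 and 6.60 in CS, against 10.34, 9.66 and 10.36 in HM. Tubb2b, a beta-tubulin, fell by 3.22 ± 0.29. Dcdc2, a microtubule-binding protein of cilia, fell by 2.73 ± 0.20. Slc10a2, the apical sodium-dependent bile acid transporter of ileum and bile ducts, had levels of 6.32, 7.90 and 6.84 in CS, against 10.03, 10.08 and 10.17 in HM, with CS 2 the highest of the CS arrays and still below every HM array. Grhl3, a transcription factor of epithelial barriers, fell by 3.20 ± 0.26. The remaining members of the set were Gbp4, an interferon-inducible GTPase (change of -3.76), the phospholipid scramblase Plscr2 (-3.50), the protein kinase A inhibitor Pkib (-3.17), Elmo1, a partner in Rac activation (-2.94), Rassf9 (-2.82) and Pwwp3b (-2.72).

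**Figure D1:**
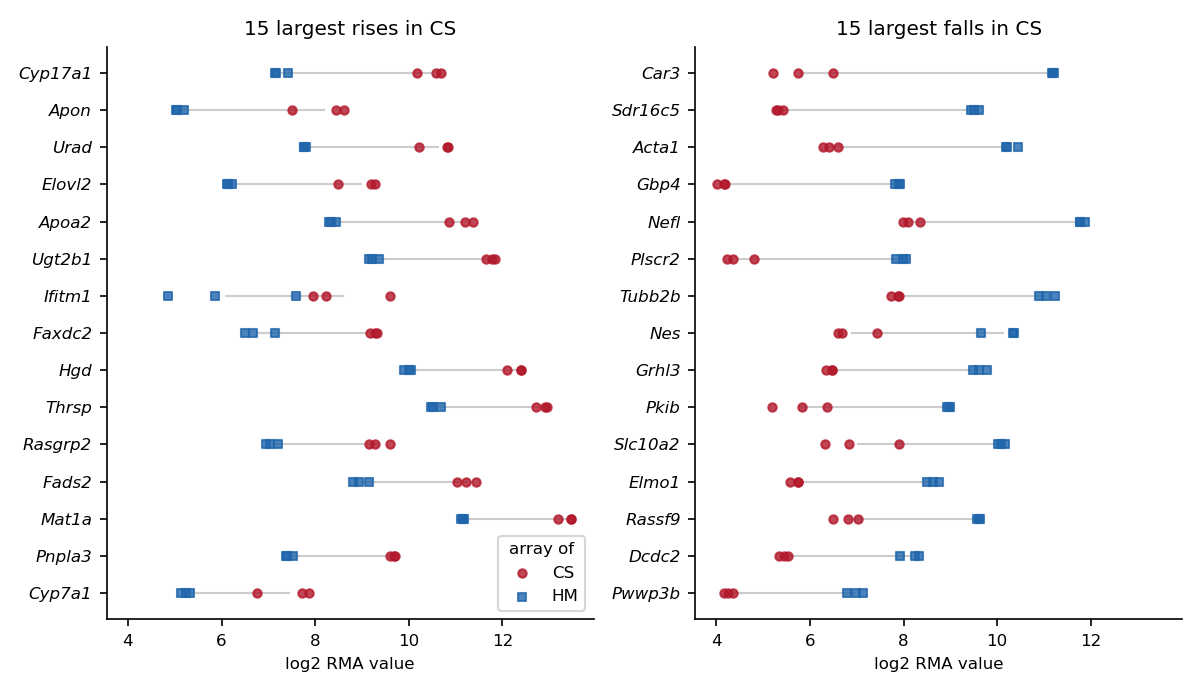
Log2 level on each array (horizontal axis) of the 15 genes with the largest rise (left) and the 15 with the largest fall (right) in CS, among called genes whose arrays did not overlap, with CS as circles, HM as squares and a grey line between the means. CS arrays lie right of HM arrays in every row of the left panel and left of them in the right panel, and Ifitm1 shows the widest spread in HM.

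Of 38 measured genes of urea and amino acid metabolism, 34 were called higher and none lower, and the median change was 0.94. Mat1a had log2 levels of 13.20, 13.47 and 13.48 in CS, against 11.18, 11.16 and 11.11 in HM. Gnmt, which uses S-adenosylmethionine to methylate glycine, had levels of 9.69, 10.84 and 10.31 in CS, against 8.38, 8.0 and 8.33 in HM, a rise of 2.05 ± 0.30 (adjusted p = 3.60e-05). Hgd had 12.10, 12.39 and 12.39 in CS, against 10.01, 10.04 and 9.90 in HM. In each of these genes, as in 37 of the 38, all CS arrays were above all HM arrays, against 24.8% of all genes. Among urea cycle enzymes, chosen here after their values were seen, Cps1 had levels of 13.65, 13.68 and 13.68 in CS, against 12.78, 12.88 and 12.85 in HM (adjusted p = 0.000377) and Otc had 10.12, 10.50 and 10.30 in CS, against 8.67, 8.72 and 8.55 in HM (adjusted p = 1.26e-06). Cps1 makes the carbamoyl phosphate that Otc joins to ornithine, and their changes were 0.83 ± 0.15 and 1.66 ± 0.19.

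Cholesterol synthesis and uptake had 20 of 21 measured genes called higher, none lower, and a median change of 0.88. Insig1, a sterol-regulated protein that retains the SREBP complex in the endoplasmic reticulum, had log2 levels of 11.92, 12.43 and 12.07 in CS, against 10.46, 10.12 and 10.30 in HM, a rise of 1.84 ± 0.16 (adjusted p = 1.72e-08). Hsd17b7, an enzyme of the later steps of cholesterol synthesis, had 7.53, 8.80 and 8.06 in CS, against 6.94, 6.53 and 6.82 in HM. Its CS arrays were spread over more than 1 log2 unit, with CS 1 the lowest and all above HM. Stard4, a carrier of cholesterol inside the cell, rose by 1.13 ± 0.14 (adjusted p = 3.18e-06). Squalene epoxidase, Sqle, the first oxygen-dependent enzyme of the pathway, had 10.93, 11.35 and 10.99 in CS, against 10.44, 10.31 and 10.23 in HM (adjusted p = 0.00115).

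In bile acid synthesis, which uses cholesterol, 11 of 16 genes were called higher and none lower, with a median of 0.59. Cyp7a1 had log2 levels of 6.77, 7.86 and 7.71 in CS, against 5.32, 5.14 and 5.23 in HM, and Cyp8b1, which directs synthesis to cholic acid, had 9.89, 10.46 and 10.20 in CS, against 8.55, 8.33 and 8.31 in HM, a rise of 1.78 ± 0.20 (adjusted p = 1.01e-06). Acox2, the peroxisomal oxidase that shortens the side chain, had 10.38, 9.996 and 10.21 in CS, against 8.76, 8.68 and 8.64 in HM (adjusted p = 1.25e-06). CS and HM arrays were well apart for all 3 genes, and CS 1 was the lowest CS array for both P450 genes.

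Lipogenesis and triglyceride synthesis had 20 of 25 genes called higher and none lower, with a median of 0.60. Thrsp had log2 levels of 12.72, 12.95 and 12.91 in CS, against 10.68, 10.48 and 10.53 in HM, and Pnpla3 had 9.69, 9.60 and 9.71 in CS, against 7.53, 7.41 and 7.38 in HM, each with close replicates and no overlap. Lpin1, a phosphatidate phosphatase of triglyceride synthesis that also acts as a transcriptional coactivator, had 11.35, 11.19 and 11.33 in CS, against 9.44, 9.38 and 9.36 in HM, a rise of 1.90 ± 0.13 (adjusted p = 5.32e-10). Fasn, fatty acid synthase, rose by 1.40 ± 0.15 and Srebf1, which encodes the regulator of lipogenesis SREBP-1, by 1.03 ± 0.13 (adjusted p = 7.60e-07 and 4.92e-06).

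Fatty acid oxidation and ketogenesis, the opposite arm of fat metabolism, had 19 of 32 genes called higher, 1 lower, and a median of 0.54. Fabp1, the fatty acid binding protein of liver, had levels of 9.94, 10.69 and 10.56 in CS, against 8.16, 8.36 and 8.28 in HM (adjusted p = 5.71e-07). Cyp4a1, a fatty acid omega-hydroxylase, had 9.39, 9.998 and 9.84 in CS, against 7.87, 7.94 and 7.5 in HM, and Ehhadh, the bifunctional enzyme of peroxisomal oxidation, rose by 1.36 ± 0.16 (adjusted p = 1.86e-06). Cpt1a, which admits long chain fatty acids to mitochondria, had 11.75, 11.93 and 11.95 in CS, against 11.16, 11.06 and 11.08 in HM, with no overlap (adjusted p = 0.000980). The 1 gene called lower was Cd36, a fatty acid transporter, with a change of -0.53 (adjusted p = 0.0286), and its call was lost without any 1 of the 6 arrays (adjusted p = 0.0516 to 0.0992).

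In gluconeogenesis and glycogen metabolism, 9 of 16 genes were called higher and none lower, with a median of 0.73. Fbp1, the fructose bisphosphatase of gluconeogenesis, had log2 levels of 11.34, 11.90 and 11.73 in CS, against 10.12, 10.22 and 10.14 in HM, a rise of 1.5 ± 0.15 (adjusted p = 2.63e-07). Gys2, the glycogen synthase of liver, rose by 1.36 ± 0.22, and Pklr, the pyruvate kinase of liver, which runs in the glycolytic direction, by 1.24 ± 0.17. Subunits of the respiratory chain had smaller changes, with a median of 0.40, but 19 of 30 were called higher and none lower. Ndufv2 and Ndufa2, both of complex I, rose by 0.72 and 0.69 (adjusted p = 0.000459 and 0.00385). The count of respiratory chain genes was 12 without CS 2 and 10 without HM 2.

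Genes of glycolysis and the hypoxia response went both ways, with 6 of 29 genes called higher, 2 lower and 21 not called. In fits to the 12 hepatocyte arrays and without the monolayers of Kupffer cells, another cell type of the study, 10 and 11 were called higher and 2 lower in both. Both genes called lower are known to be induced by hypoxia. Ndrg1, a stress-responsive gene, had log2 levels of 8.52, 9.25 and 8.85 in CS, against 11.29, 11.42 and 11.29 in HM, and fell by 2.46 ± 0.19 (adjusted p = 6.98e-09). Adm, which encodes the peptide adrenomedullin, fell by 1.28 ± 0.14 (adjusted p = 9.04e-07). Other hypoxia-inducible genes went the opposite way, as Pdk1, a kinase that restrains pyruvate dehydrogenase, rose by 0.95 ± 0.22 and Bnip3, a mitophagy receptor, by 0.91 ± 0.14. A further probe set of Pdk1 had a change of 0.47 and was not called (adjusted p = 0.154 over all probe sets).

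Enzymes of drug metabolism were called higher far more often than lower. Among cytochrome P450 and phase I enzymes 29 of 51 were called higher and 3 lower, with a median of 0.56. Besides Cyp17a1 and Cyp4a1 the largest rise was in Adh7, an alcohol and retinol dehydrogenase, with log2 levels of 6.14, 6.99 and 6.28 in CS, against 4.29, 4.77 and 4.29 in HM. Cyp2c12, known as a P450 of female rats, had 10.60, 12.05 and 11.38 in CS, against 9.40, 9.78 and 9.59 in HM (adjusted p = 0.000105). CS 1 was the lowest of the CS arrays in both genes. Aldh1a1, which oxidises retinal to retinoic acid, went the other way with 10.29, 11.30 and 10.84 in CS, against 12.71, 12.60 and 12.71 in HM, and fell by 1.86 ± 0.21 (adjusted p = 9.04e-07). All its HM arrays lay more than 1 log2 unit above the highest CS array. Cyp1a1, the P450 gene best known for induction through the aryl hydrocarbon receptor, had levels of 10.88, 10.82 and 11.12 in CS, against 10.62, 10.59 and 10.52 in HM and was not called (adjusted p = 0.464), although its groups did not overlap. It was called in fits to the 6 arrays of CS and HM (adjusted p = 0.0253) and to the 12 hepatocyte arrays (adjusted p = 0.0483).

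Of phase II conjugation enzymes 15 of 36 were called higher and 3 lower, with a median of 0.28. Ugt2b1 had log2 levels of 11.65, 11.79 and 11.84 in CS, against 9.36, 9.21 and 9.14 in HM, with close replicates and no overlap. Glyat, which conjugates acids with glycine, rose by 1.85 ± 0.29 (adjusted p = 7.68e-05). Gstp1, a glutathione transferase that is low in normal adult hepatocytes of the rat and high in their preneoplastic lesions, had 12.60, 12.39 and 12.48 in CS, against 13.45, 13.52 and 13.48 in HM, and fell by 0.99 ± 0.10 (adjusted p = 2.02e-07). Gsta4, which detoxifies 4-hydroxynonenal, fell by 0.52 (adjusted p = 0.00748).

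Transport into the cell and out of it differed. Of 13 uptake transporters of the hepatocyte, 10 were called higher and none lower, with a median of 0.95. Slc10a1, the sodium-dependent bile acid transporter of the sinusoidal membrane (NTCP), had log2 levels of 10.93, 11.13 and 11.03 in CS, against 9.50, 9.35 and 9.40 in HM, a rise of 1.61 ± 0.16 (adjusted p = 2.47e-07). Its apical relative Slc10a2 changed in the opposite direction, as given above. Slc27a2, a fatty acid transport protein with very long chain acyl-CoA synthetase activity, rose by 1.34 and Slco1b2, an organic anion transporter, by 1.06 (adjusted p = 1.13e-05 and 0.000347). Of 14 exporters, 3 were called higher and 2 lower, with a median of 0.10. Abcb11, the bile salt export pump, had 11.07, 11.40 and 11.26 in CS, against 10.02, 9.96 and 9.91 in HM, a rise of 1.28 ± 0.29 (adjusted p = 0.00225), and Abcg5, which exports sterols, rose by 0.92 ± 0.19. Abcc4, a basolateral exporter known to be induced when bile flow is blocked, fell by 0.88 ± 0.17, and Atp8b1, a phospholipid flippase of the canaliculus, by 0.68 ± 0.16.

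**Figure D2:**
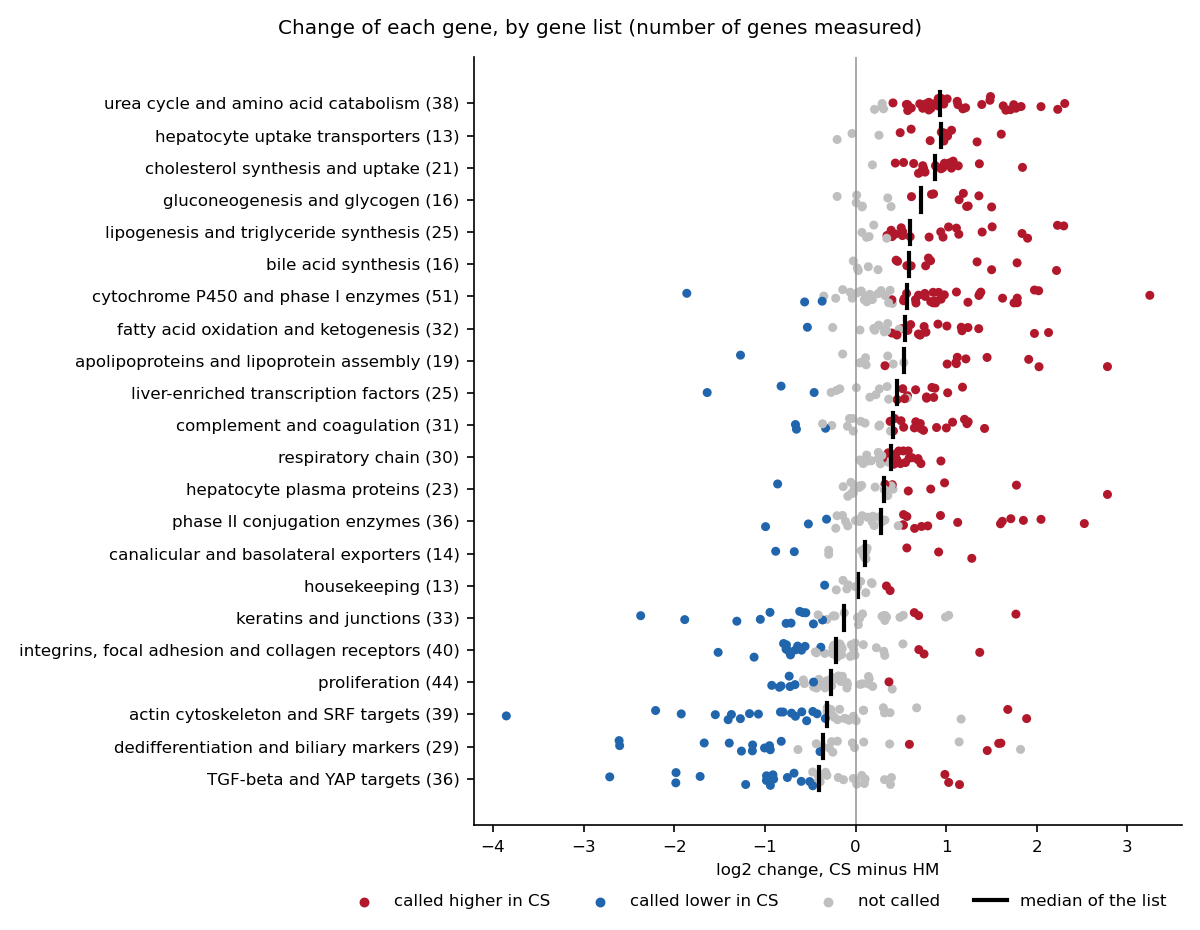
Change of each measured gene, CS minus HM on the log2 scale (horizontal axis), in 22 gene lists with the number of genes measured in brackets, where red points were called higher in CS, blue points lower and grey points neither, and black bars are medians. Medians include 0.95 for uptake transporters and -0.40 for TGF-beta and YAP targets, and the lists of amino acid catabolism, cholesterol synthesis and lipogenesis hold no blue point.

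Liver-enriched transcription factors had 12 of 25 genes called higher, 3 lower, and a median of 0.46. Ppara, the nuclear receptor that controls fatty acid oxidation, had log2 levels of 9.58, 9.44 and 9.47 in CS, against 8.24, 8.49 and 8.21 in HM, a rise of 1.18 ± 0.17 (adjusted p = 1.99e-05). Rxra, the partner of Ppara and of many other nuclear receptors, had 10.24, 9.81 and 9.96 in CS, against 9.15, 8.77 and 9.04 in HM, and Foxa3, a forkhead factor, rose by 0.88 ± 0.18 (adjusted p = 0.000975). Nr1i3, the constitutive androstane receptor of drug response, rose by 0.78 ± 0.19 (adjusted p = 0.00454). Onecut2 and Onecut1, homeobox factors of liver and bile duct development, were lower. Onecut2 had levels of 10.40, 10.01 and 9.76 in CS, against 11.78, 11.67 and 11.63 in HM, and fell by 1.64 ± 0.26 (adjusted p = 8.39e-05), and Onecut1 fell by 0.82 ± 0.19. Zhx2, a repressor of fetal liver genes in the mouse, fell by 0.46 ± 0.12 (adjusted p = 0.00893). Afp, the fetal serum protein that Zhx2 is known to repress in mice, had levels of 8.56, 8.95 and 8.77 in CS, against 8.20, 8.14 and 8.16 in HM and rose by 0.59 ± 0.12 (adjusted p = 0.000810).

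Secreted proteins changed in part. Of 23 plasma proteins of hepatocytes, 7 were called higher and 1 lower, with a median of 0.32, and 4 were called higher without CS 2, CS 3 or HM 3, and 12 in a fit to the 6 arrays of CS and HM. Hrg, histidine-rich glycoprotein, had log2 levels of 12.07, 12.26 and 12.15 in CS, against 10.47, 10.42 and 10.26 in HM (adjusted p = 2.17e-07), and Serpinc1, antithrombin, rose by 0.98 ± 0.14, while Itih2, an inter-alpha-trypsin inhibitor chain, fell by 0.86 ± 0.14. Apolipoproteins and lipoprotein assembly had 10 of 19 genes called higher and 1 lower, with a median of 0.53. Apoc2, the activator of lipoprotein lipase, had 12.73, 12.91 and 12.94 in CS, against 10.96, 10.88 and 10.66 in HM, and Apoa4 rose by 1.91 ± 0.22. The gene called lower was Lipc, hepatic lipase, which had 10.97, 11.46 and 11.12 in CS, against 12.49, 12.41 and 12.47 in HM, and fell by 1.27 ± 0.14 (adjusted p = 1.18e-06).

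Complement and coagulation had 17 of 31 genes called higher and 3 lower, with a median of 0.42. C8g, a chain of complement component C8, rose by 1.42 ± 0.19, Plg, plasminogen, by 1.24 ± 0.17 and Masp2, a protease of the lectin pathway, by 1.23 ± 0.18. Its relative Masp1 fell by 0.66 ± 0.17 (adjusted p = 0.00739), and coagulation factor V, F5, by 0.65 ± 0.15 (adjusted p = 0.00368). Further probe sets of Masp1 had changes of -1.02, called lower, and 0.25, not called. Those of Masp2 had changes of 0.99, called higher, and 0.12, not called. The count of genes called higher was 9 without CS 2 and 10 without HM 1.

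Among acute phase genes 5 of 22 were called higher and none lower, with a median of 0.16. The largest of these rises were in receptors and antagonists of cytokines, as Lifr, the receptor of leukaemia inhibitory factor, rose by 0.93 ± 0.14 and Il1rn, the interleukin 1 receptor antagonist, by 0.86 ± 0.18. Without CS 2, CS 3 or HM 2 the count was 3, while it was 8 in a fit to the 6 arrays of CS and HM and 10 without the Kupffer cell monolayers.

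**Figure D3:**
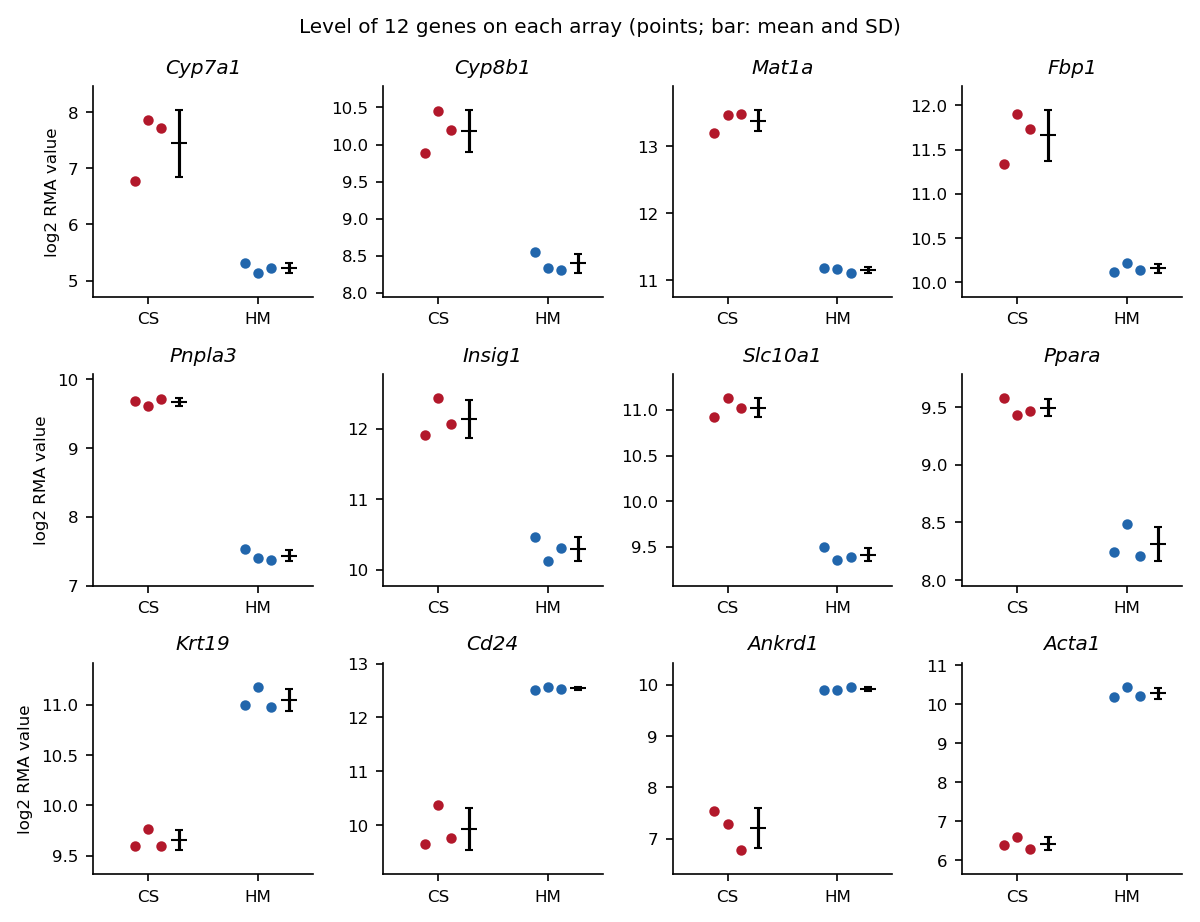
Log2 level of 12 genes on each CS and HM array (points, replicates 1 to 3 side by side), with a bar for the mean and SD of 3 arrays beside the points. The groups do not overlap in any panel, and CS is higher in the first 8 genes and lower in Krt19, Cd24, Ankrd1 and Acta1.

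Among genes of biliary cells and of dedifferentiating hepatocytes 12 of 29 were called lower, 4 higher and 13 neither, with a median of -0.36. Cd24, a surface protein of hepatic progenitor cells, had log2 levels of 9.65, 10.38 and 9.76 in CS, against 12.52, 12.57 and 12.54 in HM, and fell by 2.61 ± 0.23 (adjusted p = 2.46e-08). Anxa1, a phospholipid-binding annexin, had 10.09, 8.85 and 9.22 in CS, against 11.88, 12.13 and 11.95 in HM, with CS 1 the highest of the CS arrays. Keratin genes of bile ducts fell with them, as Krt7 had 7.56, 7.70 and 7.66 in CS, against 9.01, 9.48 and 9.44 in HM and Krt19 had 9.60, 9.77 and 9.60 in CS, against 10.99, 11.18 and 10.98 in HM (adjusted p = 5.87e-05 and 0.000277). Neither gene overlapped between the cultures. Epcam, a surface marker of biliary cells, had 10.82, 11.14 and 10.93 in CS, against 12.05, 12.14 and 12.12 in HM (adjusted p = 0.00189). Vim, the intermediate filament of mesenchymal cells, fell by 1.0 ± 0.18 (adjusted p = 0.000224). Of the 4 genes called higher, Dmbt1, a scavenger protein of epithelia, and Gpc3, an oncofetal heparan sulphate proteoglycan, rose by 1.58 ± 0.38 and 1.45 ± 0.34. The others were Afp and Lgals1, galectin 1 of mesenchymal cells, with a change of 1.60 (adjusted p = 0.00788) that was no longer called without CS 1 (1.18, adjusted p = 0.0624) or HM 1 (1.22, adjusted p = 0.0636). Biliary cells and hepatocytes that express biliary genes cannot be told apart in such bulk samples, nor can fewer cells of a type and less RNA per cell.

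Epithelial junctions and keratins had 12 of 33 genes called lower and 3 higher, with a median of -0.12. Cldn4, a claudin of tight junctions, had log2 levels of 8.96, 9.47 and 9.50 in CS, against 11.68, 11.37 and 11.99 in HM, and fell by 2.37 ± 0.23 (adjusted p = 1.16e-07). Ezr, the linker ezrin between membrane and actin, known in liver mainly from bile duct cells, had 9.66, 9.63 and 9.46 in CS, against 11.49, 11.48 and 11.44 in HM, and Pard3, a polarity protein, fell by 1.31 ± 0.16 (adjusted p = 4.56e-06). Gjb2, connexin 26 of hepatocyte gap junctions, went up instead with 10.34, 10.89 and 10.76 in CS, against 8.82, 9.0 and 8.86 in HM, a rise of 1.77 ± 0.15 (adjusted p = 2.19e-08). Mal2, which acts in transcytosis to the apical membrane, rose by 0.65 ± 0.13, and the claudin Cldn14 by 0.70 ± 0.14. Another probe set of Mal2 had a change of 0.16 and was not called (adjusted p = 0.544 over all probe sets). Further probe sets of Pard3 had changes of -0.90 and -0.77, both called lower, and of 0.04, not called. Cdh1, E-cadherin, had 11.86, 12.15 and 12.01 in CS, against 12.64, 12.70 and 12.54 in HM (adjusted p = 0.00104). The list had 6 genes called higher without CS 1, 8 in a fit to the 6 arrays of CS and HM, 7 in one to the 12 hepatocyte arrays, and 10 (with 15 lower) without the Kupffer cell monolayers.

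Of 39 genes of the actin cytoskeleton and targets of serum response factor (SRF), 18 were called lower, 2 higher and 19 neither, with a median of -0.31. Behind Acta1 came Vil1, villin of microvilli, with log2 levels of 6.37, 6.58 and 6.12 in CS, against 8.54, 8.58 and 8.57 in HM, and fell by 2.21 ± 0.15 (adjusted p = 1.11e-09), and Lcp1, an actin-bundling plastin, with 5.21, 6.12 and 5.56 in CS, against 7.35, 7.85 and 7.46 in HM. No CS array reached the lowest HM array for either gene. Proteins of stress fibres and focal contacts were among the others, as Flna, filamin A, fell by 1.41 ± 0.20 and Zyx, zyxin, by 0.83 ± 0.20 (adjusted p = 2.86e-05 and 0.00444). The 2 genes called higher were Acta2, given below with the matrix genes, and the beta-tropomyosin Tpm2, and 4 were called higher without CS 2 or HM 2. Tpm2 had 12.59, 10.85 and 11.76 in CS, against 7.90, 12.03 and 10.23 in HM, with overlap and HM 1 far below the other arrays. Its change was 1.68 ± 0.59 (adjusted p = 0.0458), and it was not called in a fit to the 6 arrays alone (adjusted p = 0.201), nor without HM 1 (0.60, adjusted p = 0.381), CS 1 (1.25, adjusted p = 0.206), CS 3 (1.67, adjusted p = 0.107) or HM 3 (1.77, adjusted p = 0.0825).

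Many muscle and cytoskeletal actin genes are controlled by SRF, which responds to actin dynamics and binds the CArG box. This motif, known by its name (CC, a run of A or T, then GG), was sought on both strands of the RefSeq promoters of the GRCr8 build, in 250 bases before and 50 after each gene's start. It was found in 1.64% of 27457 promoters in all and in 1.35% of the 11700 promoters of genes tested. In the list it was in 4 of 32 promoters that had a sequence, or 12.5%. Part of the list was chosen as known SRF targets, so this share is no independent finding, and the motif was in 6 of 32 promoters of the immediate early and stress list (18.8%), another with known SRF targets. The 150 bases before the start of these 4 genes are shown 5′ to 3′ with the box in capitals, as the promoters that Acta1 can be set beside. They lie at chr19:68784195-68784344 on the minus strand (Acta1), chr7:10370313-10370462 on the minus strand (Cnn2, a calponin), chr10:106120952-106121101 on the minus strand (Actg1, cytoplasmic gamma-actin) and chr9:21923926-21924075 on the plus strand (Srf itself).
Acta1: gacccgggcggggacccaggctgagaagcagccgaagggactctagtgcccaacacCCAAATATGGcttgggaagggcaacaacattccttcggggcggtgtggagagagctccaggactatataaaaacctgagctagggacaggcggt
Cnn2: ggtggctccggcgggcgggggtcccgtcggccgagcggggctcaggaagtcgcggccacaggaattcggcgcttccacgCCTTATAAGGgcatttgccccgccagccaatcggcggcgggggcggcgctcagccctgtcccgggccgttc
Actg1: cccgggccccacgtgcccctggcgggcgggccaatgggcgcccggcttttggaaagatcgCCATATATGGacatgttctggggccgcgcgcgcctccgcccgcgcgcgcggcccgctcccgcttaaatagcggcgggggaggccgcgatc
Srf: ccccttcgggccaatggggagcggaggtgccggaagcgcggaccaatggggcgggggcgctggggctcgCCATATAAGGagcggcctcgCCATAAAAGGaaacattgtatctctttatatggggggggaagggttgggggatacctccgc

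The 4 genes with a CArG box in this window did not behave alike. Acta1 and Cnn2 were called lower, with changes of -3.85 and -1.17 (adjusted p = 4.03e-09 and 4.78e-05), while Actg1 and Srf had changes of -0.27 and -0.20 and were not called (adjusted p = 0.113 and 0.475). The call of Actg1 depended on the arrays in the fit, with an adjusted p of 0.028 on the 6 arrays of CS and HM alone. A match of letters is a description of the sequence and not a measured binding site. Of 3 other motifs sought in the same way, the sterol response element TCACNCCAC was in none of the 17 promoters of the cholesterol list and in 1.13% of all promoters, and the AP-1 site TGANTCA was in 2 of 17 and in 7.33%. The TEAD site GGAATG was in 13 of 32 promoters of the actin list (40.6%), in 5 of 32 of the TGF-beta and YAP list (15.6%) and in 13.9% of all. Among promoters of genes tested, the shares of these 3 motifs were 1.11%, 5.43% and 11.7% in the same order.

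TGF-beta and YAP targets had 15 of 36 genes called lower and 3 higher, with a median of -0.40. Ankrd1, a textbook target of YAP, had log2 levels of 7.55, 7.28 and 6.78 in CS, against 9.89, 9.90 and 9.96 in HM, and fell by 2.71 ± 0.29 (adjusted p = 4.31e-07). Tgfb3, a TGF-beta ligand, had 8.82, 7.33 and 8.07 in CS, against 9.98, 10.07 and 10.13 in HM, and Inhbb, the activin beta B chain, had 6.27, 6.33 and 6.52 in CS, against 8.14, 8.53 and 8.39 in HM (adjusted p = 7.70e-05 and 2.53e-07). The HM arrays of Ankrd1 and Tgfb3 agreed within 0.2 log2 units, and those of CS were spread more widely below them. Tgfb2, another ligand gene, fell by 1.71 ± 0.17, Smad3, a transcription factor of the pathway, by 0.98 ± 0.16 and Ccn2, connective tissue growth factor, by 0.75 ± 0.19 (adjusted p = 2.24e-07, 0.000111 and 0.00531). Inhbe, an activin chain made chiefly by hepatocytes, rose by 1.03 ± 0.24 (adjusted p = 0.00367).

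Integrins, focal adhesion proteins and collagen receptors had 12 of 40 genes called lower and 3 higher, with a median of -0.21. Cd44, the hyaluronan receptor, had log2 levels of 10.09, 9.64 and 9.71 in CS, against 11.34, 11.34 and 11.31 in HM, and fell by 1.52 ± 0.22 (adjusted p = 3.39e-05). Ddr1, a collagen receptor kinase of epithelia, had 10.73, 10.51 and 10.82 in CS, against 11.70, 11.94 and 11.78 in HM (adjusted p = 7.66e-06). Itga1, the integrin alpha 1 chain that binds collagen and is present on normal hepatocytes, was higher with 10.10, 9.92 and 10.02 in CS, against 9.33, 9.28 and 9.17 in HM, a rise of 0.76 ± 0.18 (adjusted p = 0.00311). Ptk2b, a relative of focal adhesion kinase, fell by 0.79 ± 0.16. Among matrix proteases and their inhibitors 12 of 36 genes were called lower and 4 higher, and the count of higher genes was 1 without CS 3 or in a fit to the 6 arrays of CS and HM and 0 without CS 1, HM 1 or HM 3. Plau, the urokinase plasminogen activator, had 8.94, 9.07 and 8.82 in CS, against 11.62, 11.27 and 11.55 in HM, and fell by 2.53 ± 0.21 (adjusted p = 9.34e-09), and Mmp11, a metalloprotease, had 7.11, 7.54 and 7.23 in CS, against 9.25, 8.98 and 9.18 in HM.

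Matrix genes split. Of 57 collagens and matrix proteins, 12 were called higher, 8 lower and 37 neither, with a median of 0.22. Laminin chains of the basement membrane were lower, as Lamb2 had log2 levels of 9.15, 8.78 and 9.0 in CS, against 10.36, 10.55 and 10.50 in HM and Lamb1 had 10.09, 9.71 and 9.61 in CS, against 10.92, 11.17 and 11.002 in HM (adjusted p = 3.36e-07 and 5.19e-05), with no overlap in either. Fibrillar collagens were called higher but overlapped. Col1a1 had 12.24, 10.02 and 10.84 in CS, against 6.71, 11.01 and 9.01 in HM, so that HM 2 was above CS 2 and CS 3 while HM 1 was far below every other array. Col3a1 had 12.47, 10.19 and 11.44 in CS, against 6.08, 11.69 and 9.10 in HM and Mgp, matrix Gla protein, had 11.76, 9.87 and 11.08 in CS, against 5.15, 10.94 and 8.67 in HM, where CS 3 and HM 2 changed places.

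Markers of stellate cells and fibroblasts, 22 genes, had mean log2 levels of 8.23, 7.30 and 7.66 in CS, against 6.56, 7.65 and 7.12 in HM, again highest on CS 1 and lowest on HM 1. That list itself holds Col1a1, Col1a2, Col3a1 and Acta2, so its values are in part those of the same genes. Of the list 10 genes were called higher and 1 lower, and the count of higher genes was 1 without CS 1, 4 without CS 3 and 2 without HM 1 or HM 3, and 3 in fits to the 6 arrays of CS and HM and to the 12 hepatocyte arrays. For the matrix list it was 1 without CS 1, 7 without CS 3 or HM 3, 2 without HM 1, and 3 and 7 in these fits, while 5 were called lower without CS 3, HM 1, HM 2 or HM 3. Acta2, smooth muscle actin of activated stellate cells, had 12.08, 9.82 and 10.80 in CS, against 6.70, 11.11 and 9.21 in HM. Des, desmin of stellate cells, had 8.96, 7.5 and 7.87 in CS, against 6.62, 7.76 and 6.95 in HM, so that CS 1 was again highest and HM 1 lowest. Tagln, among the highest of the list, had another order, with 11.47, 9.52 and 10.30 in CS, against 10.38, 10.93 and 10.77 in HM. It was not called (change of -0.26, adjusted p = 0.77). The gene called lower was Reln (-0.73, adjusted p = 0.0491), and its call was lost without any 1 of the 6 arrays (adjusted p = 0.0724 to 0.170). Lrat, which makes the retinol esters of quiescent stellate cells, had 5.73, 5.24 and 5.13 in CS, against 5.48, 5.20 and 5.26 in HM. Dcn, decorin of fibroblasts, had 4.98, 4.79 and 4.78 in CS, against 4.47, 4.71 and 4.70 in HM, and both of these defining markers lay below the array medians throughout. The part of such cells in these values was not tested.

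The changes were 2.12 for Col1a1, 2.41 for Col3a1, 2.65 for Mgp and 1.89 for Acta2 (adjusted p = 0.0234, 0.0346, 0.0238 and 0.0414). None of the 4 was called in a fit to the 6 arrays alone, where the adjusted p was 0.142 for Col1a1, 0.177 for Col3a1, 0.146 for Mgp and 0.196 for Acta2. Without HM 1 the changes were 1.02 for Col1a1, 0.97 for Col3a1, 1.10 for Mgp and 0.73 for Acta2, none of them called. Without CS 1 they were 1.52, 1.86, 2.22 and 1.30 in the same order, again not called. Col3a1, Mgp and Acta2 were not called without CS 3 either (2.37, 2.56 and 1.94), nor Col1a1, Col3a1 and Acta2 without HM 3 (2.17, 2.48 and 1.99). Rgs5, a pericyte gene of the same marker list picked after its values were seen, had another order of arrays, with 8.62, 8.83 and 8.93 in CS, against 7.06, 7.09 and 7.06 in HM and a rise of 1.72 ± 0.24 (adjusted p = 1.72e-05).

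**Figure D4:**
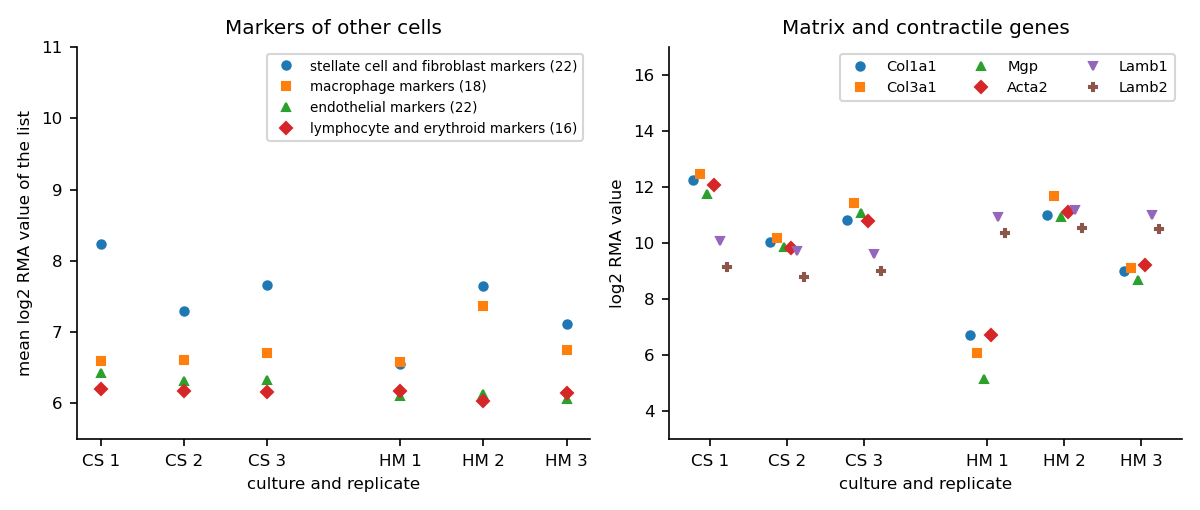
Mean log2 level of 4 lists of markers of other cells (left, number of genes measured in brackets) and log2 level of 6 matrix and contractile genes (right) on each array, with CS arrays left of HM arrays and genes shifted slightly sideways. Stellate cell and fibroblast markers are highest on CS 1 and lowest on HM 1, as are Col1a1, Col3a1, Mgp and Acta2, and Lamb1 and Lamb2 are lower on every CS array than on any HM array.

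Several defining markers of macrophages and endothelium, such as Adgre1, Csf1r, Stab2 and Vwf, lay below the array medians on every array, but these were picked after their values were seen. Lyz2, the macrophage lysozyme, had 9.09, 9.28 and 9.59 in CS, against 8.81, 11.96 and 10.20 in HM, and C1qc, a complement C1q chain, had 8.27, 8.38 and 8.41 in CS, against 8.51, 9.10 and 8.60 in HM, both above the medians on every array. The 18 macrophage markers had mean levels of 6.59, 6.61 and 6.71 in CS, against 6.58, 7.36 and 6.75 in HM, with HM 2 highest, and 1 was called higher and 2 lower (4 lower without HM 1). The genes called lower were Fcer1g, an Fc receptor chain, with 5.48, 5.86 and 5.90 in CS, against 5.98, 8.04 and 6.23 in HM, and Ctss, cathepsin S, with 5.69, 6.18 and 6.35 in CS, against 6.32, 8.45 and 6.92 in HM. HM 2 was far above the other arrays in both, and without it the changes were -0.36 for Fcer1g and -0.55 for Ctss (adjusted p = 0.402 and 0.271). Neither was called without CS 1 (adjusted p = 0.144 and 0.121) or CS 2 (0.0769 and 0.0566), nor in fits to the 6 arrays of CS and HM (0.143 and 0.0993) or the 12 hepatocyte arrays (0.0936 and 0.0661), and Fcer1g was not without CS 3 (0.0743). Adgre1, the macrophage antigen F4/80, had 4.64, 4.51 and 4.68 in CS, against 4.53, 4.65 and 4.47 in HM. Cd14, the lipopolysaccharide co-receptor, which hepatocytes also make, had 11.20, 10.81 and 11.11 in CS, against 9.86, 9.68 and 9.76 in HM and rose by 1.27 ± 0.13 (adjusted p = 4.31e-07). The 22 endothelial markers had means of 6.43, 6.31 and 6.32 in CS, against 6.11, 6.13 and 6.07 in HM, and 5 were called higher and 2 lower. Those called lower were Flt4 and Esam, both without overlap. Flt4 had 7.18, 6.90 and 7.17 in CS, against 8.14, 7.73 and 8.18 in HM (adjusted p = 0.00108). Esam fell by 0.81 ± 0.18 (adjusted p = 0.00203). Egfl7, among the highest of the list, was lower on every CS array but not called (change of -0.13, adjusted p = 0.555). Fcgr2b, an Fc receptor of liver sinusoidal endothelium, had 6.64, 7.06 and 6.85 in CS, against 4.92, 4.88 and 4.61 in HM (adjusted p = 3.45e-09), and S1pr1, a sphingosine phosphate receptor, rose by 1.59 ± 0.22 (adjusted p = 1.54e-05). Stab2, a defining marker of that endothelium, had 6.01, 5.81 and 5.79 in CS, against 5.81, 5.73 and 5.79 in HM and Vwf had 5.68, 5.56 and 5.48 in CS, against 5.53, 5.41 and 5.43 in HM, with overlap between the cultures in both. Sox17, an endothelial transcription factor, had 8.65, 8.25 and 8.33 in CS, against 8.23, 7.87 and 8.23 in HM, above the array medians throughout, and Eng, endoglin, had 8.84, 8.06 and 8.41 in CS, against 7.22, 7.80 and 7.29 in HM, above them on every CS array. Another probe set of S1pr1, with low means of 4.24 in CS and 4.21 in HM, was not called (adjusted p = 0.93 over all probe sets). Of 16 lymphocyte and erythroid markers 0 were called (2 higher without the Kupffer cell monolayers).

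Proliferation genes had 7 of 44 called lower and 1 higher, with a median of -0.27, and 4 were called lower without CS 2 or HM 2 and 12 in a fit to the 6 arrays of CS and HM. Ccnd1, cyclin D1 of the entry into the cell cycle, had log2 levels of 11.51, 11.10 and 11.33 in CS, against 12.10, 12.41 and 12.21 in HM, and fell by 0.92 ± 0.15 (adjusted p = 9.02e-05). Mcm7, a replication helicase subunit, fell by 0.84 ± 0.14 and the cyclin D kinase Cdk6 by 0.82 ± 0.18. Growth factors and the IGF axis went both ways, with 8 of 46 genes called higher and 9 lower (5 higher without CS 1 and HM 2 together). Igf1, the main circulating growth factor made by liver, had 11.72, 12.17 and 11.82 in CS, against 10.84, 10.82 and 10.74 in HM, a rise of 1.11 ± 0.17 (adjusted p = 6.55e-05). Receptors of fibroblast growth factors went opposite ways, as Fgfr2 had 9.24, 9.32 and 9.20 in CS, against 7.45, 8.07 and 7.69 in HM and Fgfr3 had 9.18, 9.54 and 9.33 in CS, against 11.13, 10.98 and 11.39 in HM (adjusted p = 2.83e-06 and 9.34e-09). Fgf1, a ligand of both, had 9.31, 9.24 and 9.15 in CS, against 11.08, 11.10 and 11.08 in HM, and fell by 1.86 ± 0.15.

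Stress genes showed no common direction. Of 39 immediate early and stress genes, 7 were called higher and 6 lower, with 3 higher without CS 1, HM 2 or HM 3, 4 without CS 3, and 3 lower without CS 3 or HM 3. Fos rose by 1.22 ± 0.23, while another AP-1 member, Fosl2, fell by 1.15 ± 0.17 (adjusted p = 0.000497 and 2.84e-05). A probe set of Fos with lower levels had a change of 0.37 and was not called (adjusted p = 0.163 over all probe sets). Trib3, a target of the integrated stress response, rose by 0.90 ± 0.18. In glutathione and Nrf2 defence 7 of 31 were called higher and 3 lower, and 3 were called higher without CS 3 or HM 3. Without the Kupffer cell monolayers 12 were called higher and 7 lower. Sod2, the mitochondrial superoxide dismutase, had log2 levels of 12.22, 12.38 and 12.33 in CS, against 11.10, 11.03 and 11.07 in HM, a rise of 1.24 ± 0.11 (adjusted p = 6.84e-08), whereas Nfe2l2, which encodes Nrf2 itself, fell by 0.66 ± 0.10 (adjusted p = 5.57e-05).

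Chemokines and cytokines had 8 of 46 genes called higher and 13 lower (5 higher without HM 3). Ccl2, a monocyte attractant, had log2 levels of 9.91, 9.99 and 9.55 in CS, against 12.11, 12.04 and 12.09 in HM, and its relative Ccl7 fell by 1.41 ± 0.30 (adjusted p = 3.62e-05 and 0.00125). Ccl20, which attracts cells with the receptor CCR6, had 9.38, 9.66 and 9.71 in CS, against 8.37, 8.18 and 8.08 in HM, a rise of 1.38 ± 0.19 (adjusted p = 1.36e-05), and the alarmin Il33 rose by 1.22 ± 0.18. Cxcl12, the ligand of CXCR4, had 9.36, 7.78 and 7.54 in CS, against 6.96, 7.43 and 6.97 in HM and was called higher (adjusted p = 0.0271), but not without CS 1 (0.54, adjusted p = 0.228), HM 1 (1.02, adjusted p = 0.0876) or HM 3 (1.03, adjusted p = 0.0887). Of 30 interferon response and antigen presentation genes, 1 was called higher and 3 lower, shares no larger than over all genes. The largest change was in Gbp2, an interferon-inducible GTPase related to Gbp4, which had 6.70, 6.58 and 6.51 in CS, against 8.88, 8.81 and 8.85 in HM, and fell by 2.25 ± 0.18 (adjusted p = 7.72e-09).

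The hepatocytes of the 3DHL and 3DHLK models, sampled on the same day, show where CS and HM lay among the 4 hepatocyte cultures. In the 3D models the other cells were first removed with antibody-coated magnetic beads. Stellate cell and fibroblast markers averaged 8.95 in 3DHLK, 7.43 in 3DHL, 7.73 in CS and 7.11 in HM. Macrophage markers averaged 8.08, 6.90, 6.64 and 6.90 in the same order. The part of other cells in the differences from the 3D models was not tested. CS was called higher than 3DHL for 1284 genes (9.03%) and lower for 1819 (12.8%). This comparison shares the CS arrays with that against HM, so the values are set side by side and no overlap is read from them. Cyp17a1 averaged 10.48 ± 0.27 in CS, 6.74 ± 0.18 in 3DHL, 7.22 ± 0.09 in 3DHLK and 7.23 ± 0.15 in HM (SD, n = 3 each). Hgd averaged 12.29 ± 0.17 in CS, 9.70 ± 0.26 in 3DHL, 10.03 ± 0.14 in 3DHLK and 9.98 ± 0.07 in HM. In both genes CS stood alone, above the 3D models and HM (adjusted p = 3.05e-12 and 3.13e-11 against 3DHL).

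Apoa2 had another pattern. It averaged 11.14 ± 0.26 in CS, 10.999 ± 0.17 in 3DHL, 11.06 ± 0.24 in 3DHLK and 8.36 ± 0.07 in HM, so that HM was the low culture (adjusted p = 0.475 for CS against 3DHL). HM was likewise set apart in Dcdc2, at its high end, as the gene averaged 5.44 ± 0.10 in CS, 5.49 ± 0.11 in 3DHL, 5.70 ± 0.18 in 3DHLK and 8.17 ± 0.21 in HM (adjusted p = 0.891 against 3DHL). Car3 averaged 5.82 ± 0.65 in CS, 10.35 ± 0.13 in 3DHL, 9.14 ± 0.07 in 3DHLK and 11.19 ± 0.02 in HM, with CS alone at the low end (adjusted p = 7.49e-10 against 3DHL).

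Gene lists differed in this respect. Against 3DHL, 34 of 38 genes of urea and amino acid metabolism and 19 of 21 of cholesterol synthesis were called higher in CS and none lower. For fatty acid oxidation the counts were 5 higher and 4 lower of 32, with Fabp1 at 10.40 ± 0.40 in CS, 10.23 ± 0.23 in 3DHL and 8.27 ± 0.10 in HM. For the respiratory chain they were 4 higher and 0 lower of 30. Biliary and dedifferentiation genes had 9 of 29 called lower than in 3DHL and 4 higher. Krt7 averaged 7.64 ± 0.07 in CS, 8.15 ± 0.55 in 3DHL, 8.85 ± 0.32 in 3DHLK and 9.31 ± 0.26 in HM. It was not called for CS against 3DHL (adjusted p = 0.165).

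**Figure D5:**
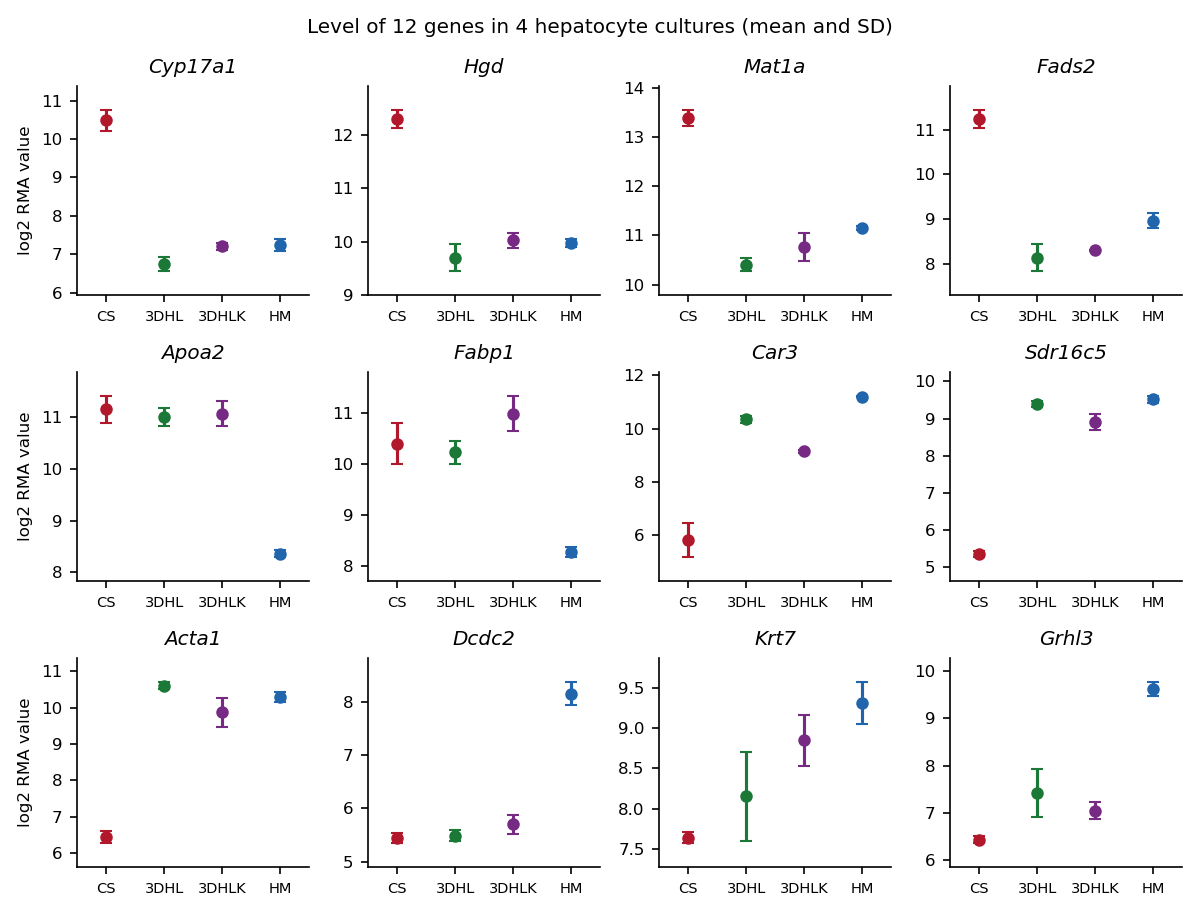
Mean log2 level with SD (n = 3 arrays each) of 12 genes in CS, 3DHL, 3DHLK and HM hepatocytes. Cyp17a1, Hgd, Mat1a and Fads2 are high in CS alone, Car3, Sdr16c5 and Acta1 are low in CS alone, and Apoa2 and Dcdc2 set HM apart from the other 3 cultures.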

How the data were processed

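Total RNA of each culture was hybridised to Affymetrix rat genome arrays (RG230 2.0), 23 in all in 8 groups, of which CS and HM hold 3 each. The deposited values are log2 expression values that the authors made by RMA (background correction, quantile normalisation and summarisation of probes), whose version the sources used here do not name. The labels give another amplification kit than the methods, so the labelling is uncertain. Arrays have no read depth, and precision rests on how many there are. Medians were 7.44 to 7.495 on the CS and HM arrays. Deposited values were used without further normalisation.

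Of 31099 probe sets, 20826 name 1 gene in the platform annotation, 436 name several and 9780 name none, besides 57 controls. Each of 14217 genes was represented by 1 probe set, that of highest mean level across the 23 arrays. limma 3.58.1 in R 4.3.3 was fitted to 8 group means over the 23 arrays, with the contrast CS minus HM, eBayes, two-sided p-values and Benjamini-Hochberg adjustment over all genes. SE is that of the fit and SD that of 3 arrays. On simulated data the same steps called 38% of 50 planted log2 changes of 0.5, 92% of those of 1 and 100% of those of 1.5. Of all calls there, 6.78% were false.

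Named genes are the 15 largest called rises and falls without overlap between CS and HM, the 3 largest called each way in each of 35 gene lists, the highest markers of other cells, and a few fixed genes. Some of the 193 genes picked by this rule are not described above, such as Tnc, Itgb3, Inhba and Snai1. Cps1, Otc, Fasn, Srebf1, Sqle, Cpt1a, Cyp2c12, Nr1i3, Epcam, Cdh1, Flna, Zyx, Tgfb2, Smad3, Ccn2, Des, Rgs5 and the low defining markers were named after their values were seen, and Cnn2, Actg1 and Srf for their promoters. Members and lists were chosen with earlier results of these data known. RefSeq promoters of GRCr8 were matched by gene ID for 11700 of the 14217 genes. Alternatives changed the arrays in the fit, the probe set, the scaling, a filter on low genes and the replicates. Replicate numbers were not used to pair the arrays in the main fit.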

Additional observations from a re-analysis of the deposited data

Results flagged for a closer look

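Probe sets that name no gene in the platform annotation were not part of the comparison of genes. All 31042 probe sets that are not controls were fitted in the same way. Of the 9780 that name no gene, 353 were called higher in CS (3.61%) and 619 lower (6.33%). Among all 31042 the counts were 2244 higher (7.23%) and 2821 lower (9.09%). Those without a gene name were not described further.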

How the results depend on the processing

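Of 193 named genes 178 were called, none of which changed direction under the 18 alternatives of processing listed at the outset, and 148 kept their call in every one that retained all replicates of CS and HM. Leaving out 1 array at a time gave 1085 to 1527 genes called higher, 1107 to 1287 lower, 294 to 342 higher at 2-fold or more and 314 to 362 lower by as much, and 144 named genes kept their call each time. Without CS 1 and HM 2 together, a setting added after the data had been seen, 978 genes were called lower in place of 1526. Same-numbered CS and HM arrays did not deviate together from their group means (r = -0.155, -0.308 and -0.033). Single arrays that stand apart weigh on these values, so they cannot show whether same-numbered arrays share an isolation. Fits to fewer arrays called 2103 genes higher and 2138 lower (the 6 arrays of CS and HM), 2113 and 2126 (the 12 hepatocyte arrays) and 2310 and 2205 (without the Kupffer cell monolayers). With the replicate number as a block 1471 genes were called higher and 1478 lower on all arrays, and 1862 and 1957 on the 6 arrays of CS and HM. The share of called genes that were higher was 50.8%, against 44.1% centred on housekeeping genes and 56.5% centred on array medians. Of other probe sets of the named genes, 49 had the same call and 24 none. Values near the ceiling of the scale limit what can be read from the most abundant genes, and low ones from the least.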
